A study of Homo sapiens with 18 samples.

Results

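Array B, which went through 2 stringent washing cycles before it was stained, was compared with array A, which was stained without any. The comparison took 16 of the 18 scans of the series, 8 of each array, and matched them by scan number, so that A1 stood against B1 and A8 against B8 and both scans of a pair followed the same number of additional cycles in the same series of scans. All 54675 probe sets of the array were compared. The 2 scans of another array, C, entered no difference and were used to rank the probe sets by brightness.

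All arrays were HG-U133 Plus 2.0 arrays and received the same hybridization mix, made from RNA of untreated FTC133 cells, an established line from a human follicular thyroid carcinoma. Array A was washed under low stringency, stained and scanned after 0, 2, 7 and 17 stringent cycles (A1 to A4). It was then stained again and scanned after the same additional steps of 0, 2, 7 and 17 cycles (A5 to A8), at totals of 17, 19, 24 and 34. Array B had 2 stringent cycles before the first staining and 2 more before the second, so that its totals were 2, 4, 9 and 19 for B1 to B4 and 21, 23, 28 and 38 for B5 to B8. Array C had 6 cycles before its first staining (C1) and 6 more before its second (C2). Matched scans thus differed by the cycles before staining and by the physical array, and since each washing order was carried out on 1 array, the washing order and the array cannot be told apart in any value given here. The 8 scans of an array are repeated readings of 1 hybridization. Standard deviations (SD) below run over pairs of scans of the same 2 arrays, cover none of the spread between arrays, and no test across arrays was possible.

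On these arrays biotin-labelled RNA fragments bind short probes, and the bound biotin is stained with a streptavidin-phycoerythrin dye, whose signal is built up with an anti-streptavidin antibody and further dye. Stringent washing, at low salt and raised temperature, takes off loosely paired fragments faster than well paired ones. A probe set gives 1 signal per transcript from a group of such probes, and that signal holds specific binding of the intended transcript as well as non-specific binding of other fragments. For a transcript that the cells do not make, the signal is non-specific only.

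The deposited signals are MAS5 intensities on a linear scale, and every scan had been scaled to the same trimmed mean, between 249.94 and 249.98 on the 18 scans. A difference is therefore a change relative to that mean, which leaves out the lowest and highest 2% of probe sets. The very brightest probe sets are not part of it. The median signal was 136 on A1, 86.3 on A4, 63.8 on B1, 53.6 on B4 and 51.0 on C1. Differences are given as log2 of the signal on B over that on A, and a relative difference has the median over all probe sets of that pair subtracted. A positive relative difference means that B over A was higher for the probe set than for the median one, which can hold for a signal that was lower on B, and says nothing of the amount of a transcript. The scaling sets this zero. Without the centring the median of all probe sets lay at -0.48 as a mean over the 8 pairs, and with each scan set to its 100 brightest probe sets it lay at -1.05.

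The genes that mark a dedifferentiated thyroid carcinoma line had signal on both arrays. VIM, an intermediate filament of mesenchymal cells, ranged from 7178 to 18676 on the scans of A and from 11458 to 33482 on those of B. PAX8 and NKX2-1, transcription factors of the thyroid follicular cell, lay between 533 and 1310 on both arrays. TG, the precursor of thyroid hormone, lay between 44.9 and 365 on A and between 12.1 and 90.1 on B. Its C1 signal of 40.7 was below the median of C1, and so were those of FOXE1 (39.9), KRT19 (4.59) and CDH1 (32.3). Defining markers of leukocytes, PTPRC and CD14, were at 24.6 and 11.4 on C1.

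Over all probe sets, the scans of B were nearer to those of C than to those of A. The distance used was the interquartile range (IQR, the width that holds the middle 50% of probe sets) of the log2 difference between 2 scans. Scans of A and B were 1.44 to 2.54 apart over the 64 possible combinations, scans of B and C 1.05 to 1.44 over 16, and scans of A and C 1.62 to 2.74 over 16. Scans of the same array were 0.47 to 1.91 apart for A and 0.51 to 1.24 for B. Each of the 8 scans of B had a smaller distance to both scans of C than to any scan of A. The scan of A nearest to B1 was A3 at 1.44. Between matched scans the distance was 2.30 for B1/A1, then 1.66, 1.63 and 1.75 for B2/A2 to B4/A4. The nearness of B to C was not seen among the 5468 probe sets brightest on C1. Among those, the median distance was 0.48 (0.34 to 1.10) for A with B and 0.51 (0.33 to 0.67) for B with C.

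As deposited, most probe sets had less signal on B than on A in every pair. The share below 0 ran from 62.6% for B4/A4 to 68.5% for B1/A1. The median difference was -0.84 for B1/A1, then -0.49, -0.38 and -0.37 for B2/A2 to B4/A4. In the second series it was -0.54, -0.36, -0.45 and -0.43 for B5/A5 to B8/A8. By the IQR the differences were widest at the first scan, at 2.30. The range from the 5th to the 95th percentile was -3.71 to 1.24 there, and was wider for B4/A4, at -3.62 to 2.04. The IQR was 1.54 to 1.75 in the other 7 pairs.

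**Figure D1:**
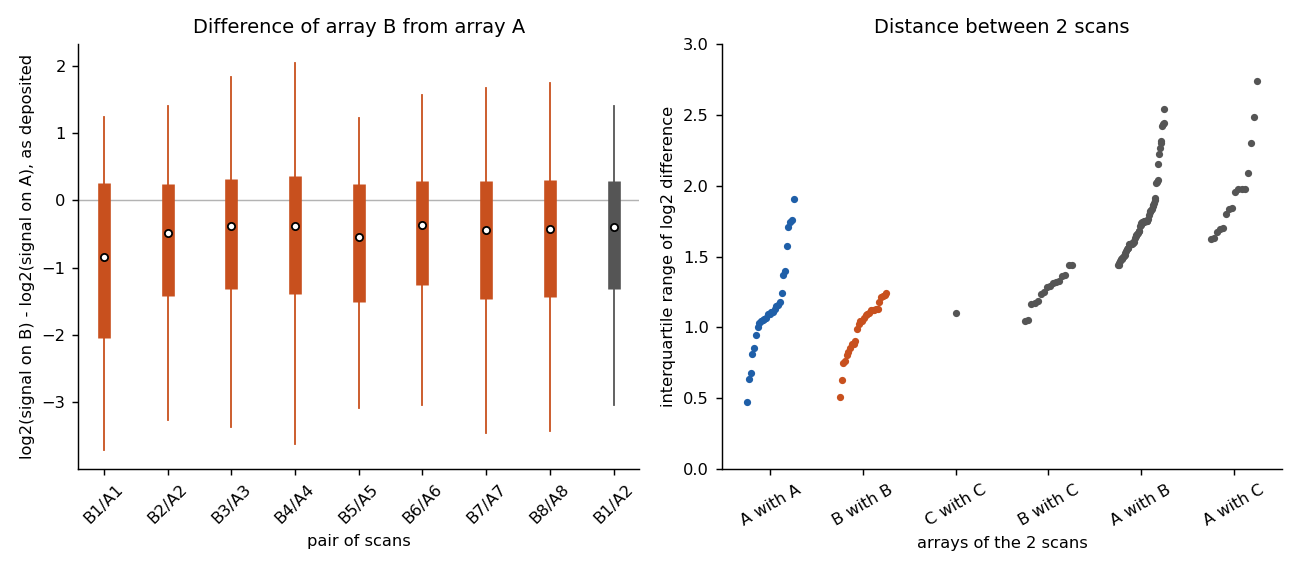
Left, log2 difference of B from A as deposited for each pair of scans, with the median (circle), the middle 50% (bar) and the 5th to 95th percentiles (line) over 54675 probe sets. Right, the interquartile range of the log2 difference for each combination of 2 scans by array, which is 1.05 to 1.44 for B with C and 1.44 to 2.54 for A with B.

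The plot of the differences by pair shows that the first pair stood apart and that the next 7 were alike in median and in width. It also holds a ninth comparison, B1 with A2, in which both scans had had 2 stringent cycles in total, before staining on B and after it on A. There the median difference was -0.39 and the IQR 1.60, close to the values of B2/A2. B1/A1 and B1/A2 share scan B1, and A1 and A2 are scans of 1 array.

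Bright probe sets were higher and dim probe sets lower on B. Probe sets were put into 10 groups of equal size by their signal on C1, from 0.166 to 5.33 in the lowest group to at least 822 in the highest. In the lowest group the median signal was 45.4 on A1 and 11.1 on B1, and in the highest it was 1154 on A1 and 1701 on B1. As deposited, the median ratio of B1 to A1 was thus 0.222 in the lowest group and 1.57 in the highest. As relative differences, the 10 groups lay at -1.33, -1.07, -0.89, -0.89, -0.68, -0.34, 0.18, 0.75, 1.08 and 1.49 from dim to bright. The order was kept throughout these groups, apart from groups 3 and 4, which were equal at this precision. Elsewhere the dim groups lay closer together. For B5/A5 the first 5 groups ran from -0.90 to -0.55. For B4/A4 the first 5 groups lay between -0.48 and -0.47, and the next ones at -0.37, -0.17, 0.09, 0.30 and 0.67.

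**Figure D2:**
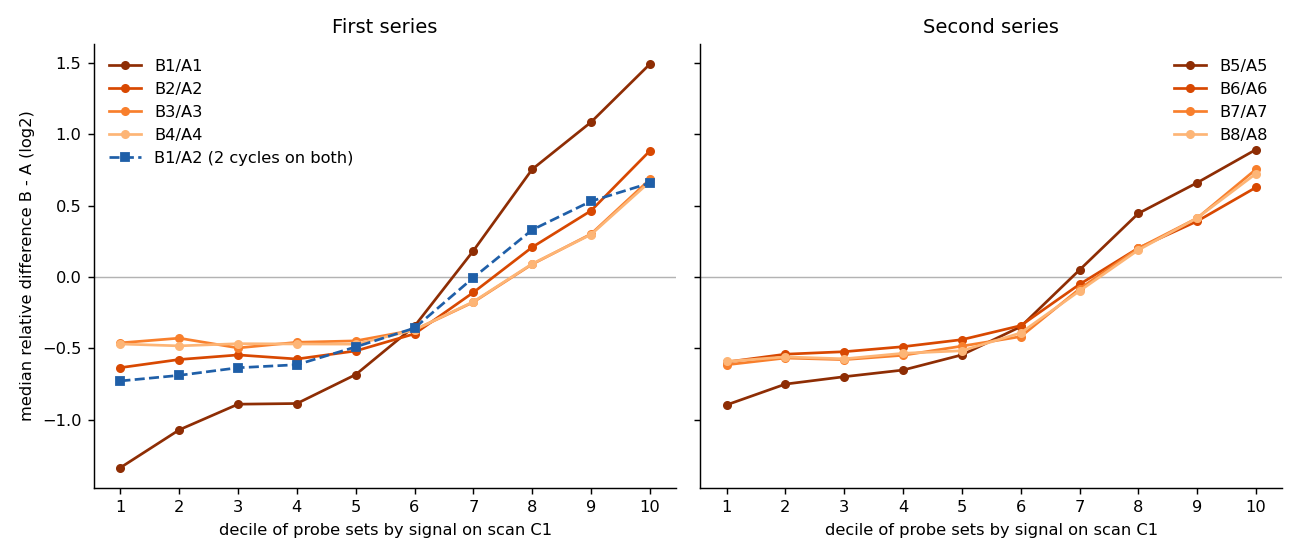
Median relative difference, log2 of B over A, of 10 groups of probe sets ordered by signal on scan C1, for the pairs of the first and the second series and for B1/A2. Dim groups lie below 0 and bright groups above, from -1.33 to 1.49 for B1/A1 and from -0.47 to 0.67 for B4/A4.

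The gap between the highest and the lowest group, which no scaling by a constant can change, was 2.82 for B1/A1, a 7.08-fold shift between bright and dim probe sets. It was 1.52 for B2/A2, 1.14 for B3/A3 and 1.14 for B4/A4. After the second staining it was 1.79, 1.22, 1.37 and 1.31 for B5/A5 to B8/A8. The mean was 1.65 ± 0.80 in the first series and 1.42 ± 0.25 in the second (SD, n = 4 pairs of scans each), so the series differed by less than the spread between pairs. In both series the pair scanned straight after staining had the largest gap. Without the first pair the mean of the first series was 1.26. Over all probe sets C was the array nearer to B, and the ranking mattered where the gap was small. With probe sets ranked by scan A4 the gap was 2.46 for B1/A1, and the means of the series were 0.83 and 0.95. Quantile normalization, which gives all scans 1 distribution, left a gap of 0.50 for B1/A1, and adding 16 to every signal left 1.79. The offset left 0.76 for B1/A2 and means of 0.98 and 0.77 for the series.

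The first 2 cycles after staining moved the highest group above the lowest on array A and hardly did so on B. Between A1 and A2, which are separated by 2 cycles, the highest group moved 1.48 above the lowest, whereas the same 2 cycles moved it by 0.09 between B1 and B2. In the second series the corresponding values were 0.73 for A5 to A6 and 0.11 for B5 to B6. At an equal total of 2 cycles the gap of B1 over A2 was 1.38, with the lowest group at -0.73 and the highest at 0.66. It was 0.83 when probe sets were ranked by A4. In that comparison the median ratio as deposited was 0.460 in the lowest group and 1.20 in the highest. The groups in the middle of the range lay between, at -0.36 for the sixth and 0.00 for the seventh.

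Among the very brightest probe sets the arrays also differed. The 100 brightest on C1 lay 1.54 above the median for B1/A1, 1.04 for B4/A4 and 0.50 for B1/A2. The highest single signal on a scan was 13312 on A1 against 20047 on B1, and 34355 on A4 against 51804 on B4.

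Probe sets were counted as higher or lower on B where the relative difference was at least 2-fold. For B1/A1 there were 15045 higher probe sets (27.5% of all) and 15914 lower ones (29.1%). For B1/A2 there were 7743 higher (14.2%) and 12723 lower (23.3%). With the same side required in all 8 pairs, 479 were higher (0.876%) and 1099 lower (2.01%). The split between the directions followed the scaling. For B1/A1 it was 4296 higher and 25545 lower without centring, and 1155 and 33899 with scans set to the 100 brightest probe sets. For B1/A2 those 2 settings gave 4478 with 17911, and 3892 with 19645, while quantile normalization gave 9203 higher and 9352 lower. For all 8 pairs the counts were 71 and 2895 without centring, 474 and 523 after quantile normalization, and 15 and 7402 with scans set to the 100 brightest.

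The direction of these calls went with brightness. In the group brightest on C1, 225 of 5468 probe sets were called higher in all 8 pairs and 0 lower. In the dimmest group 8 of 5467 were called higher and 195 lower. A looser count, of relative differences on the same side of 0 in all 8 pairs whatever their size, found 4914 (89.9%) above and 1 below in the brightest group. In the ninth group it found 2712 above (49.6%), and in the dimmest 1036 below (19.0%) and 68 above. The SD of a probe set over the 8 pairs had a median of 0.33 in the brightest group and 1.29 in the dimmest, so single dim probe sets varied from pair to pair by more than their group lay below 0, at a mean of -0.68.

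The trend with brightness was then taken out, by subtracting from each difference the median of the probe sets of like brightness, in 100 bins by C1. This adjustment was chosen after the trend had been seen. It left 445 probe sets higher and 341 lower in all 8 pairs, and 10825 higher and 8771 lower for B1/A1. For B1/A2 it left 9190 higher and 8249 lower. Differences of at least 2-fold that recurred in every pair of scans were thus also present between probe sets of like brightness.

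Array C, which entered no difference, stood on the side of B for most probe sets called higher. With log2 signals centred on the median of each scan, C1 was nearer to B1 than to A1 in 444 of the 479 (92.7%). The same held for 38751 of all 54675 (70.9%), which are not matched to the 479 in brightness. As deposited, the median signal of the 479 was 124 on A1, 405 on B1 and 380 on C1. Of the 1099 called lower, 733 (66.7%) were nearer to B1, a share below that of all probe sets. Their median signal was 167 on A1, 12.2 on B1 and 16.9 on C1. On the last scans of the first series their medians were 93.2 on A4 and 7.37 on B4, as the choice of these probe sets requires.

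The genes with the largest differences were drawn from called probe sets with 1 gene symbol and a C1 signal above the median, of which there were 215 genes higher and 79 lower. That limit on C1 favours probe sets on which C1 resembles B among the higher ones and A among the lower ones, so the C1 values given with these genes do not place array C. The values that follow are as deposited, and the relative differences of these genes kept their sign under each scaling tried. Their low readings were often very dim, with medians of 9.42 on A for FSD1L and 4.41 on B for CTXND1. The dim Bacillus control probe sets described below had medians of 48.6 on A1, 19.6 on A4, 22.4 on B1 and 9.51 on B4. With no offset or filter on low values, the size of such folds is uncertain.

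FSD1L had the highest relative difference, 3.63 ± 0.94 (SD, n = 8 pairs of scans), or 12.4-fold. Its signal ran from 5.46 to 31.1 on A with a median of 9.42, and from 56.1 to 127 on B with a median of 100.3. The scans of the 2 arrays did not overlap, and C1 was at 97.6. LHPP, which encodes a phosphatase that acts on phosphohistidine, ran from 7.06 to 41.05 on A and from 92.9 to 189 on B (3.38 ± 0.65). For IFT122, a subunit of the transport complex that moves cargo in cilia, 1 scan of A crossed into the range of B. A4 read 115.9 beside 14.998 to 37.7 on the other scans of A, and B read 112.9 to 239, for a relative difference of 3.37 ± 0.87.

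SLC2A10, a glucose transporter, showed how unevenly a single array could read. Its signal was 26.9 on A1, 45.3 on A2, 172.6 on A3, 11.9 on A4, and 22.8, 36.2, 95.95 and 130.6 on A5 to A8. On B it stayed between 213 and 363, above every scan of A, and the difference was 3.01 ± 1.45. NR2C2AP, whose product binds the nuclear receptor NR2C2, was steadier at 13.4 to 38.9 on A and 82.3 to 170.0 on B (2.92 ± 0.46). ID2-AS1, an antisense transcript, read 176 and 174 on A1 and A2 and 12.3 to 39.4 on the later scans of A, beside 184 to 259 on B (2.91 ± 1.20).

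The other 6 of the 12 highest genes were ANKRD36, CPNE2, a calcium-dependent membrane-binding protein, RRN3P3, a pseudogene, INTS6-AS1, CARD16, and the zinc finger gene ZNF74. Their relative differences were between 2.94 and 3.33, and all 8 scans of B lay above all 8 of A in each. The probe set of ANKRD36 carries the suffix that Affymetrix gives to probes shared with other sequences, and a pseudogene shares sequence with its parent gene, so the transcripts behind these signals are uncertain.

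**Figure D3:**
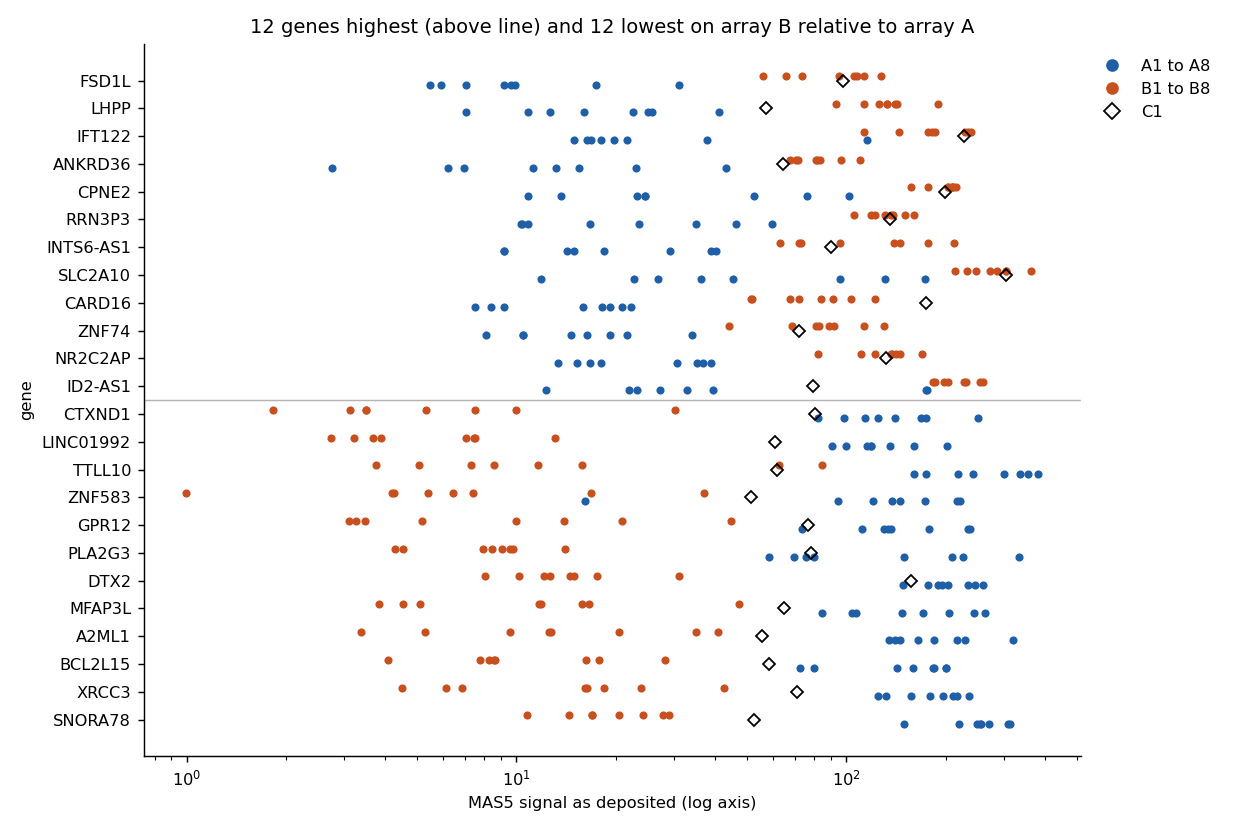
Signals as deposited on a log scale for the 12 genes with the highest and the 12 with the lowest mean relative difference, one point for each of the 8 scans of array A and of array B and for C1. The scans of the arrays do not overlap for 11 of the 12 genes higher on B, the exception being IFT122.

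Among the lower genes, CTXND1 had the lowest relative difference, -4.15 ± 1.13, or 17.7-fold lower on B. It ran from 82.0 to 250 on A and from 1.83 to 30.2 on B, and the scans of C were far apart, at 80.1 on C1 and 13.5 on C2. LINC01992, a long non-coding RNA, had 90.4 to 202 on A and 2.74 to 13.1 on B (-4.09 ± 1.01). PLA2G3, a secreted phospholipase, had the smallest SD of these 12 genes, at -3.50 ± 0.64, with 58.5 to 335 on A and 4.27 to 14.004 on B. DTX2, a ubiquitin ligase that acts in Notch signalling, was the brightest of them on C1. It read 149 to 260.0 on A, 8.03 to 31.0 on B and 157 on C1, while C2 read 109, below the lowest scan of A.

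TTLL10 ranged from 160 to 382 on A and from 3.76 to 84.3 on B (-3.77 ± 1.49). ZNF583, a zinc finger gene, was the 1 lower gene named here whose ranges overlapped, with 16.1 on A3 and 36.9 on B1 (-3.69 ± 1.68). XRCC3, a protein of homologous recombination, had 125 to 235 on A and 4.51 to 42.7 on B (-3.26 ± 1.17). SNORA78, a small nucleolar RNA, had 150 to 313 on A and 10.8 to 29.1 on B (-3.21 ± 0.87). GPR12, an orphan receptor, MFAP3L, A2ML1, a protease inhibitor, and BCL2L15 lay between -3.63 and -3.28. The plot of these 24 genes shows that most lower genes read near or above the median of the scan on A and far below it on B.

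Other probe sets of the same gene gave a second reading of its transcript on each array. Only those with a C1 signal above the median of all probe sets were counted, so dimmer probe sets of these genes are left out. Of the 215 genes called higher by their brightest probe set, 105 had 210 such other probe sets. Among these, 173 (82.4%) had a mean relative difference above 0 and 12 (5.71%) were called higher. Over all 5917 genes with other probe sets above that median those shares were 68.6% and 1.33%. After the brightness adjustment the medians of these other probe sets were 0.075 for the genes called higher and 0.057 for all. For the 79 genes called lower, 9 other probe sets above that median were present, 4 of them with a mean above 0 and none called lower.

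Lists of genes of housekeeping functions were higher on B, and lists of genes of other tissues were lower. The lists were put together with results of these data known, and each gene stands by its brightest probe set on C1. Over all 19775 genes the median relative difference was 0.48 for B1/A1 and 0.23 as the mean of the 8 pairs. It was below 0 without centring (-0.25), with scans set to the 100 brightest probe sets (-0.81) and after the brightness adjustment (-0.02). Of these genes, 226 were called higher in all 8 pairs and 330 lower, and 5507 (27.8%) lay above 0 in all 8 pairs. The median signals of the bright lists below fall in the group of probe sets brightest on C1. In that group 89.9% of probe sets lay above 0 in all 8 pairs and 4.11% were called higher. These shares are the ones to set beside the counts of the bright lists.

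Cytosolic ribosomal proteins, which form the subunits of the ribosome, had a median of 1.60 for B1/A1, 1.09 for B4/A4 and 0.55 for B1/A2 over 49 genes measured of 73. The mean over the 8 pairs was 1.09, 46 of the 49 genes were above 0 in all 8 pairs and 7 were called higher. After the brightness adjustment that mean was -0.00. RPS23, of the small subunit, read 9570 on A1 and 18373 on B1, and 25255 on A4 and 47559 on B4. Its relative difference was 1.26 ± 0.26, and both arrays gained signal over the same steps.

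Proteasome subunits had a mean of 1.11 with 27 of 27 genes above 0 in all 8 pairs and 3 called higher. Chaperones, which help proteins fold, had 1.05 with 25 of 25 and 3 called. Glycolytic enzymes had 1.10 with 14 of 17 above, 1 below and 4 called higher, and cytoskeletal genes 1.13 with 18 of 21 above and 3 called. These 4 lists were above 0 under each scaling tried, but by as little as 0.0023 (chaperones) to 0.079 (cytoskeletal genes) with scans set to the 100 brightest probe sets. After quantile normalization they were at 0.051 to 0.16, and after the brightness adjustment at 0.017 to 0.11. ENO1, the glycolytic enolase, read 9341 to 24529 on A and 15251 to 38250 on B, for a relative difference of 1.11 ± 0.19.

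In 7 further lists the sign depended on the scaling, since they were above 0 after centring and below 0 with each scan set to its 100 brightest probe sets. Mitochondrial ribosomal proteins had a mean of 0.84 with 59 of 66 genes above 0 in all 8 pairs and 2 called higher, and -0.21 in the other scaling. Translation factors had 1.02 (29 of 31, 4 called) and -0.02. Respiratory chain subunits had 1.00 (40 of 41, 5 called) and -0.04. Splicing factors had 0.87 (32 of 37, 2 called) and -0.17, and also -0.01 after the brightness adjustment. Genes of proliferation had 0.97 (31 of 32, 2 called) and -0.08. Mesenchymal and matrix genes had 0.77 (17 of 24 above, 1 below, 1 called) and -0.27, and immediate early genes, whose messages are short-lived, 0.66 (16 of 28, 2 called) and -0.39.

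Single genes of these lists stood above their neighbours and kept their sign under each scaling. MRPL20, of the mitochondrial ribosome, read 2679 to 5580 on A and 5426 to 11378 on B (1.48 ± 0.21). TYMS, the thymidylate synthase of DNA synthesis, had a relative difference of 1.30 ± 0.22. FN1, the matrix protein fibronectin, read 8328 to 24005 on A and 16376 to 44627 on B (1.51 ± 0.18). ID1, an inhibitor of differentiation factors, read 2220 to 5085 on A and 5830 to 9723 on B (1.49 ± 0.31). All 4 were called higher, and for ID1 the scans of the arrays did not overlap.

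The epithelial list lay near 0 and the thyroid list somewhat below. Over 22 epithelial genes the mean was 0.01, with 7 above and 3 below 0 in all 8 pairs, and it was below 0 without centring (-0.47), with scans set to the brightest probe sets (-1.04) and after the brightness adjustment (-0.03). Over 15 thyroid genes the mean was -0.22, with 1 above and 2 below. It stayed below 0 under each scaling, at -0.70 without centring and -1.27 with scans set to the brightest probe sets. After the brightness adjustment it was -0.29. PAX8 read 941 to 1310 on A and 728 to 924 on B, so that every scan of B was below every scan of A, while its relative difference was -0.05 ± 0.23. NKX2-1 overlapped between the arrays, at 533 to 896 on A and 648 to 926 on B, and had 0.66 ± 0.27, or -0.39 with scans set to the brightest probe sets. As deposited, the mean difference was -0.53 for PAX8 and 0.18 for NKX2-1, although their C1 signals were alike at 757 and 766.

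**Figure D4:**
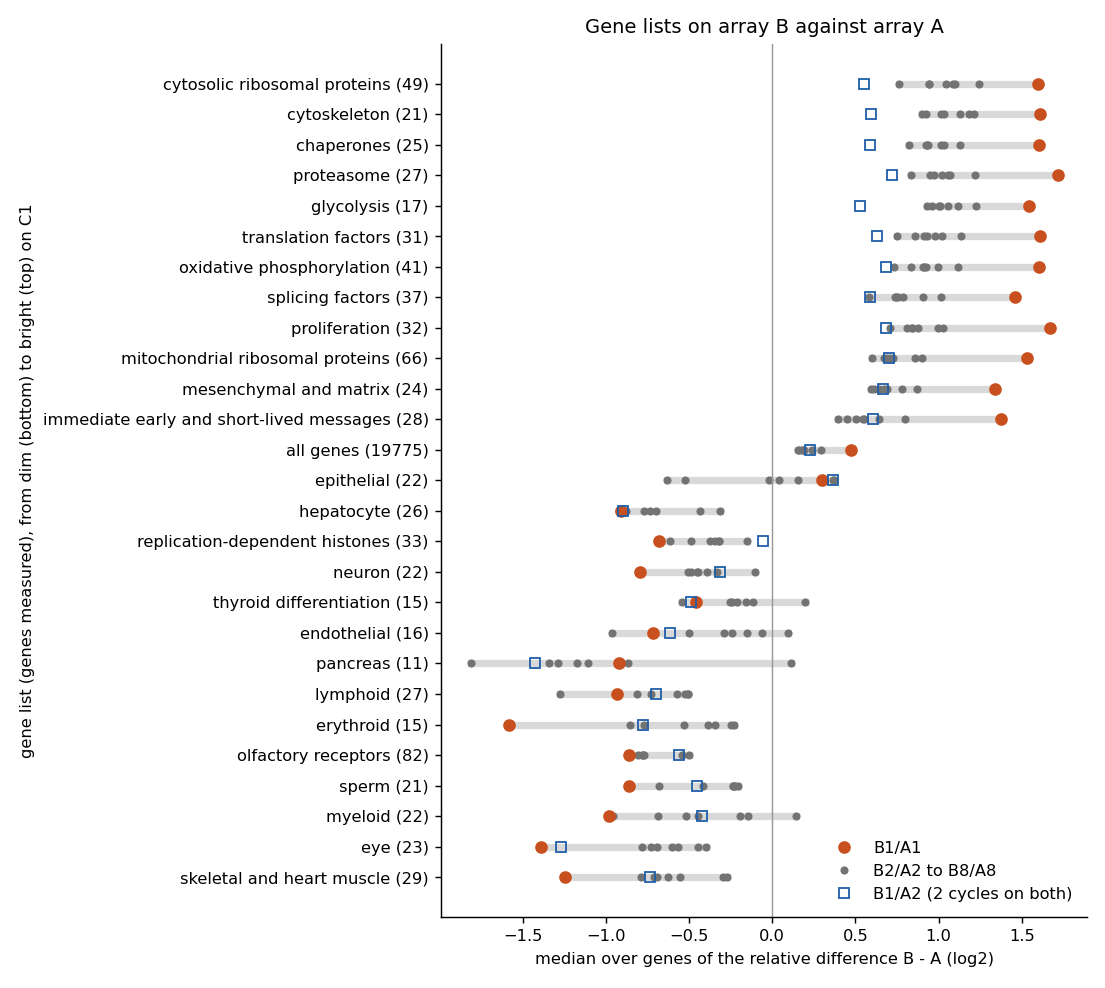
Median over genes of the relative difference, log2 of B over A, for each gene list (genes measured in parentheses) in the 8 pairs of scans and for B1/A2, with the lists ordered by brightness on C1 and the range of the 8 pairs in grey. Bright lists lie above 0 and most dim lists below under this centring, whereas with each scan set to its 100 brightest probe sets all genes, epithelial genes and 7 of the bright lists were below 0, and myeloid genes were above 0 after quantile normalization.

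Lists of genes of other tissues were lower on B. Beside their counts stand 2202 of all genes (11.1%) below 0 in all 8 pairs, and 17.1% to 19.8% of the probe sets in the 6 dimmest groups. Olfactory receptors had a mean of -0.74 over 82 genes, with 24 below 0 in all 8 pairs, 1 above and 2 called lower. Lymphoid genes had -0.73 (8 of 27 below, 1 above), hepatocyte genes -0.71 (8 of 26 below), eye genes -0.70 (5 of 23), muscle genes -0.65 (7 of 29) and erythroid genes -0.62 (4 of 15). The lowest mean was that of pancreas genes, -1.05 over 11 genes, of which 1 was below 0 in all 8 pairs. The shares below 0 in all 8 pairs thus ran from 9.09% for pancreas genes to 30.8% for hepatocyte genes. The plot of the lists by pair shows that erythroid and pancreas genes varied more between pairs than the bright lists. Their SD over the 8 pairs was 0.45 and 0.55, beside 0.20 (glycolysis) to 0.32 (immediate early genes) in the bright lists. It was 0.14 for olfactory receptors, 0.22 for hepatocyte genes and 0.27 to 0.31 for lymphoid, muscle and eye genes. Erythroid genes for example lay at -1.58 for B1/A1 and -0.25 for B4/A4. These 7 lists were below 0 under each scaling tried and after the brightness adjustment.

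The remaining dim lists were closer to 0. Myeloid genes had a mean of -0.47, which was 0.05 after quantile normalization and 0.09 after the brightness adjustment. Neuron genes had -0.44, histone genes -0.41 and endothelial genes -0.35. Sperm genes had -0.39, which was 0.16 after the brightness adjustment. Few of their members were called, 1 higher and 1 lower among myeloid genes, 1 higher among histone genes and 1 lower among endothelial genes.

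The list medians went with brightness. On C1 the median signal of the 12 lists with the highest means ran from 824 to 18530, and that of the other 14 from 10.4 to 71.7. After the brightness adjustment the former lay between -0.01 and 0.11. The latter lay between -0.63 for pancreas genes and 0.16 for sperm genes, and thyroid genes were at -0.29, hepatocyte genes at -0.37 and olfactory receptors at -0.22. Within the dim lists a few genes of higher signal lay above 0. SYT1 and NEFL, of the neuron list, had C1 signals of 1901 and 957 and differences of 0.76 and 0.77, which were -0.29 and -0.27 with scans set to the brightest probe sets.

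Of the dim lists 1 gene named by the rule was called. ARR3, the arrestin of cone photoreceptors, read 122 to 312 on A and 21.4 to 62.2 on B, without overlap (-1.77 ± 0.43). PTPRC, the leukocyte surface phosphatase CD45, read 32.8 to 127 on A and 1.38 to 28.4 on B, also without overlap, but the difference varied from -5.55 to -0.08 between pairs. CATSPER1, a sperm ion channel, had a difference above 0 in all 8 pairs, 2.23 ± 1.11, with 18.1 to 148 on A and 114 to 180 on B. Single genes of the dim lists thus differed in either direction.

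Under this centring the medians of bright control classes lay above 0 and that of the dim class below. The bacterial and phage transcripts bioB, bioC, bioD and cre are added in rising amounts to every hybridization mix, so that their targets are known to be present. All 18 of their probe sets were above 0 in all 8 pairs. For B1/A1 their medians were 1.82, 1.94, 1.75 and 1.49, and as means over the 8 pairs 0.92 ± 0.48, 1.13 ± 0.35, 1.25 ± 0.21 and 0.99 ± 0.23. These values did not rise steadily with brightness from bioB to cre. After the brightness adjustment they were 0.36, 0.34, 0.21 and -0.10. With scans set to the 100 brightest probe sets bioB (-0.13) and cre (-0.06) were below 0, and after quantile normalization cre was at -0.04. Of the 18, 4 were called higher.

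The 27 probe sets for Bacillus genes, to which polyadenylated control RNA binds when it is added before labelling, were dim as a class. Single ones were brighter, up to 251 on A1. The median signal of the class was 48.6 on A1 and 22.4 on B1, and 19.6 on A4 and 9.51 on B4. The relative difference was -0.65 ± 0.28, below 0 under every scaling, with 1 probe set above and 2 below 0 in all 8 pairs and none called. The median of the bioB probe sets was 6.97 times that of the Bacillus ones on A1, 10.8 times on A2 and 19.1 times on A4. On B it was 24.0 times on B1 and 54.8 times on B4, and on C1 55.5 times. In the first series each scan of B was therefore above each scan of A in this ratio. After the second staining it was 13.5 on A5 and 19.6 on B5, and 19.8 on A8 and 28.5 on B8.

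**Figure D5:**
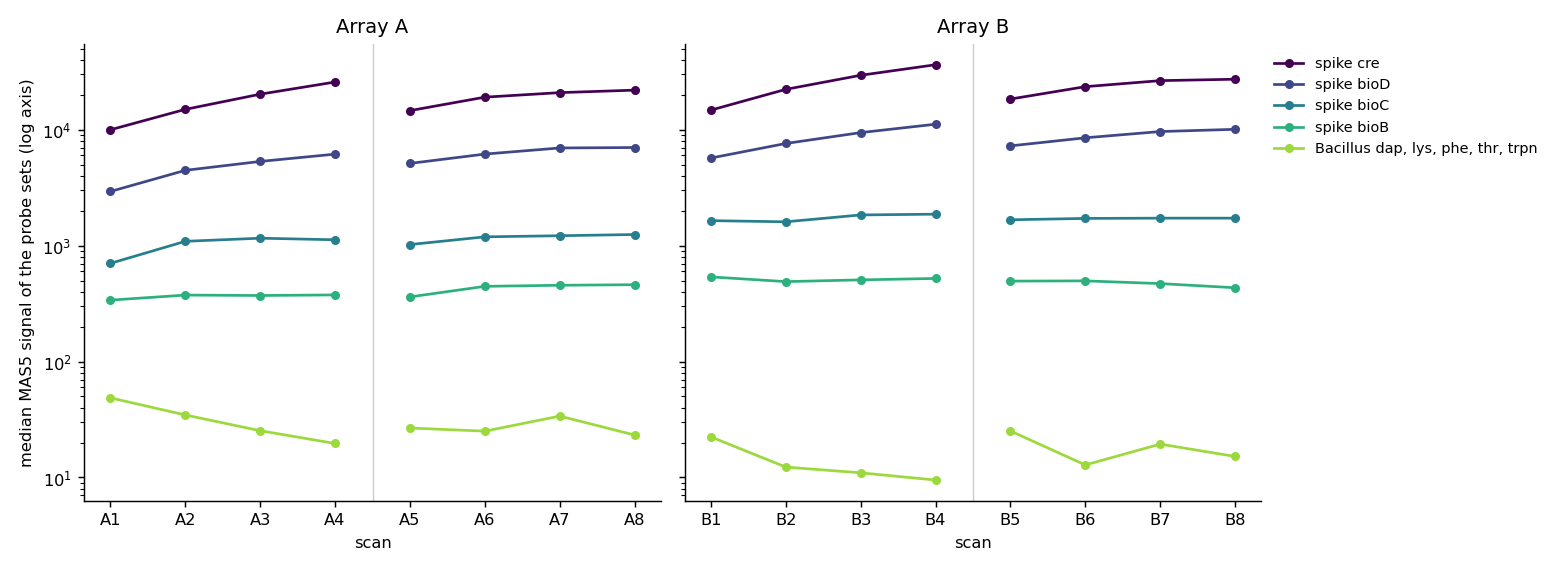
Median signal of the probe sets of each spike and of the 27 Bacillus probe sets on the scans of array A (left) and array B (right), on a log axis, with a line between the series. The Bacillus signal is 48.6 on A1 and 22.4 on B1, and bioB stands farther above it on B in every scan of the first series.

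Between the spikes the arrays were closer in the first series than in the second. The cre probe sets read 29.5, 40.0, 54.5 and 68.6 times the bioB ones on A1 to A4 and 27.5, 45.5, 58.2 and 69.7 times on B1 to B4. In the second series the ratio was 40.5, 42.8, 45.9 and 47.7 on A5 to A8 and 37.2, 47.3, 56.3 and 62.9 on B5 to B8. In the plot of the controls the dim class lies lower on B.

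Control probe sets for human transcripts behaved like bright or middle genes. ACTB had a mean of 1.27 ± 0.27 in the first series and 0.72 ± 0.11 in the second, and GAPDH 1.20 ± 0.23 and 0.70 ± 0.28 (SD, n = 4 pairs of scans each). The study notes that a small part of the probes saturated the scanner in the second series, and what part this had in these values was not tested. Over all 8 pairs the means were 1.00 ± 0.35 and 0.95 ± 0.36, but with scans set to the brightest probe sets they were at -0.05 and -0.09, and after quantile normalization at -0.12 and -0.15. The 18S rRNA had 0.47 ± 0.14 and the 28S rRNA 0.52 ± 0.34, and -0.58 and -0.53 with scans set to the brightest, and the 18S rRNA was also at -0.01 without centring. The ratio of 3′ to 5′ probe sets was 0.92 to 1.00 for GAPDH and 1.44 to 1.57 for ACTB over the 8 scans of the first series, and 0.72 to 1.52 and 0.86 to 1.02 over those of the second, although the RNA was the same.

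The kinds of probe set differed along with their brightness. For B1/A1, probe sets whose name ends in _s_at, which match several transcripts, had a median relative difference of 0.75 and a median C1 signal of 148. Those ending in _x_at had 0.34, those ending in _at -0.26 and those ending in _a_at -0.54. Probe sets without a gene symbol had -0.70 at a median C1 signal of 26.0. After the brightness adjustment each of these 5 medians was between -0.07 and 0.05.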

How the data were processed

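The deposited table held 1 signal intensity per probe set and scan for 18 scans. The authors made these intensities with MAS5, which combines the perfect match and mismatch probes of a set, on a linear scale, and scaled each scan to the same trimmed mean. That was checked here with the lowest and highest 2% left out. The MAS5 version is not given in the sources used here. No 2 scans held identical values. Counting depth does not apply, and the number of arrays, 1 per washing order, limits the precision.

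Log2 signals of B and A were subtracted for scans of the same number, with no offset and no filter on low values, and each difference was centred on its median over 54675 probe sets. A scan's number, series and cycles were taken from its title. A probe set counted as called at 2-fold or more on the same side. Python 3.11.15, numpy 2.4.6, pandas 2.3.3 and matplotlib 3.10.9 were used, and the steps were tested on simulated data with 200 changed probe sets. The simulated noise was equal for all probe sets, so the larger spread of dim probe sets was not covered by it.

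GEO's platform annotation gave 1 symbol for 41097 probe sets, several for 1801 and none for 11777, and 41043 of the first were found by gene ID in RefSeq, with no symbol changed. There were 62 control probe sets. The controls of 2 classes are not reported here. A gene was represented by its brightest probe set on C1. Genes were named by rule, as the 12 highest and 12 lowest called genes above the median of C1, the 3 brightest members of each of 26 lists, cell type markers and the controls. The comparison, the lists and the rules were chosen with earlier results of these data known.

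Alternatives were no centring, quantile normalization, anchoring each scan on the 100 probe sets brightest on C1, an offset of 16, only the 27338 probe sets brighter on C1, a 4-fold limit, each series alone, leaving out each pair, other rankings, means of deciles and the mean over the probe sets of a gene. The brightness adjustment, the centring of the brighter probe sets on their own median, and the alternatives for the controls were added after seeing the data. Probe sequences were not used here.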

Additional observations from a re-analysis of the deposited data

Results flagged for a closer look

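Among 4 pairs of scans of a series, a single pair was set apart from the other 3 in 21 of 310 groups of 4 examined, by a gap to its nearest neighbour above the 95% limit of Dixon's ratio of gap to range. Chance flags about 1 in 20 such groups, and no further weight is given to these values. All are relative differences, log2 of B over A, except the first, which is an interquartile range. The IQR of B6/A6 was 1.54, and the nearest pair of its series had 1.74. B5/A5, scanned straight after the second staining, was set apart in this way in 4 of the 10 brightness groups. It was at -0.90 beside -0.61 in the dimmest, -0.75 beside -0.57 in the second, 0.44 beside 0.20 in the eighth and 0.66 beside 0.41 in the ninth.

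In the gene lists, lymphoid genes lay at -0.81 for B5/A5 beside -0.53 for the nearest pair, sperm genes at -0.68 for B8/A8 beside -0.24 and eye genes at -1.39 for B1/A1 beside -0.78. Of the lower genes, CTXND1 was at -1.85 for B6/A6 beside -4.39 and LINC01992 at -2.39 for B5/A5 beside -4.61. B1/A1 was set apart for COX7A2 (1.34 beside 0.94), KRT7 (1.76 beside 0.99), NEFL (1.51 beside 0.71) and ACTC1 (0.67 beside -0.04). Later pairs of the first series were set apart for H1-2 (0.82 for B3/A3 beside 1.45) and COL1A1 (-0.31 for B4/A4 beside 0.68). In the second series these were MRPL20 (1.29 for B6/A6 beside 1.54), LDHA (1.13 for B7/A7 beside 0.82), PSMB1 (0.055 for B5/A5 beside 0.86), HNRNPA2B1 (0.89 for B6/A6 beside 1.23) and CSF1R (-0.50 for B6/A6 beside 0.12).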

How the results depend on the processing

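All values are differences of matched scans, and no test across arrays, with or without a replicate block, was possible. The bright-to-dim gap was above 0 under every alternative, and the counts moved with the scaling, the limit on the fold and the choice of probe sets. Counts of probe sets higher and lower on B, 479 and 1099 in all 8 pairs, became 71 and 2895 without centring, 15 and 7402 with scans anchored on the brightest probe sets, and 202 and 428 with the offset. After quantile normalization 523 were lower, and after the brightness adjustment 341. Among the brighter probe sets 168 were lower, and with those centred on their own median 78 were higher and 471 lower. A 4-fold limit left 24 and 130. The first series alone gave 1623 and 3323 and the second 2385 and 4854. Leaving out 1 pair gave 517 to 652 higher and 1239 to 1420 lower.

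For B1/A1, with 15045 and 15914, the counts were 4296 and 25545 without centring, 1155 and 33899 anchored, 3285 and 6099 for the brighter probe sets on their own median, and 3099 and 6684 at 4-fold. The lower count was 9903 with the offset, 8771 after the brightness adjustment and 2492 among the brighter probe sets. For B1/A2, with 7743 and 12723, they were 3892 and 19645 anchored, 4886 and 8170 with the offset, 4135 and 2375 among the brighter probe sets, 2006 and 4139 for these on their own median, and 2134 and 5153 at 4-fold. The higher count was 4478 without centring, and the lower count 8249 after the brightness adjustment.

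The gap became 0.50 for B1/A1, 0.22 for B1/A2 and 0.18 for the mean of either series after quantile normalization. With the offset it was 1.79 for B1/A1, 0.76 for B1/A2, 0.98 in the first series and 0.77 in the second, and ranked by A4 it was 0.83 in the first series and 0.95 in the second. Leaving out 1 pair gave 1.26 to 1.83 in the first series and 1.30 to 1.49 in the second.

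Signs of lists turned for all genes (-0.25) and epithelial genes (-0.47) without centring. With anchoring they turned for all genes (-0.81), epithelial genes (-1.04), mitochondrial ribosomal proteins (-0.21), translation factors (-0.024), respiratory chain subunits (-0.043), splicing factors (-0.17), proliferation (-0.077), mesenchymal genes (-0.27) and immediate early genes (-0.39). With the brightness adjustment they turned for all genes (-0.023), epithelial genes (-0.029), cytosolic ribosomal proteins (-0.0020), splicing factors (-0.0097), myeloid (0.086) and sperm genes (0.16), and with quantile normalization for myeloid genes (0.054). The mean over the probe sets of a gene turned epithelial genes (-0.25).

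Controls turned with anchoring for bioB (-0.13), cre (-0.057), ACTB (-0.052), GAPDH (-0.094), the 18S rRNA (-0.58) and the 28S rRNA (-0.53), with quantile normalization for cre (-0.038), ACTB (-0.12) and GAPDH (-0.15), with the brightness adjustment for cre (-0.10), ACTB (-0.10), GAPDH (-0.14) and the 18S rRNA (-0.0074), and without centring for the 18S rRNA (-0.015). Of 116 genes, 24 moved by less than their SD over pairs with anchoring, 69 without centring or with the brightness adjustment, 70 with quantile normalization and 102 with the offset. The cause of these shifts was not tested, and how far a signal lies above background was not measured.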
